A study of Mus musculus with 6 samples.

Results

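Podxl and 8 genes whose proteins build and deliver an apical surface were followed in single mouse embryonic stem cells: Ezr, Slc9a3r1, Pard3, Pard6b, Prkcz, Prkci, Rab11a and Sytl2. The 9 genes were found by their symbols among 19532 gene rows, and 8 of them had enough counts to be tested. Cells of the established embryonic stem cell lines R1 and IB10 were grown with LIF in serum-free N2B27 medium under 3 conditions, with 1 library per line and condition and 188 wells per library. LIF_2i cells also received 3 µM CHIR99021, a GSK3 inhibitor that activates WNT signalling, and 0.1 µM PD325901, a MEK inhibitor. Rosette_LIM cells had the same 0.1 µM PD325901 with 2 µM IWP2, a drug that stops cells from secreting WNT, over 6 (R1) or 5 (IB10) passages. Primed_4d cells had 2 µM IWP2 without a MEK inhibitor for 4 days, together with the growth factors Activin A (20 ng/ml) and FGF2 (12 ng/ml). At collection, R1 was at passage 24 and IB10 at passage 28 in LIF_2i and primed_4d, and at passages 28 and 33 in rosette_LIM, so passage number moved with rosette_LIM. Each line stands for itself: no further cultures of a line are described, and p-values measure only the spread between these libraries. The cells were trypsinised and sorted before RNA was captured, so tissue shape and protein position were not measured.

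A lumen forms when neighbouring cells gather a shared apical surface and keep it apart from their lateral and basal sides. Podocalyxin, the protein of Podxl, is a sialic acid-rich mucin of the apical membrane whose charge holds facing membranes apart. Ezrin (Ezr) and the PDZ scaffold NHERF1 (Slc9a3r1) tie it to the actin cortex. Pard3, a scaffold, and Pard6b, an adaptor, work with an atypical protein kinase C, encoded by Prkcz or Prkci, to set the apical border, and vesicles carrying Rab11a and the tether Sytl2 deliver podocalyxin to the site where the lumen opens. In the mouse embryo, the epiblast forms a rosette as it leaves the naive state and then opens a lumen, and the series names its cultures for the rosette and primed states.

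The libraries held between 4614580 and 7688723 UMIs (unique molecular identifiers, each marking 1 captured molecule). The median per well lay between 11250 in R1 primed_4d and 40975.5 in IB10 LIF_2i, and 84 of the 188 wells of R1 primed_4d held fewer than 6000 UMIs. Levels are given in CPM, counts per 1000000 counts of the library, and the transcripts were tagged at their 3′ ends, so that a level does not grow with transcript length. The cultures carried pluripotency transcripts throughout, with a summed level of 5 core genes (such as Pou5f1 and Sox2) of 1825 to 2502 CPM. Of 10 naive genes, such as Klf4 and Tfcp2l1, edgeR called 1 lower in rosette_LIM than in LIF_2i and 10 lower in primed_4d. Of 9 formative and primed genes, such as Otx2 and Fgf5, 3 were called higher and 1 lower in rosette_LIM, and 9 higher in primed_4d. Fgf5 and Zic5 of these passed the count filter only through primed_4d. Over all genes, edgeR called 3.2% higher and 2.35% lower in rosette_LIM, and 18.3% higher and 19.6% lower in primed_4d, each against LIF_2i.

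Podxl was higher in rosette_LIM than in LIF_2i and higher again in primed_4d, and of the 8 tested members it had the largest fold change in each of the 3 comparisons. The gene lies on the minus strand at chr6:31519488-31563981 (GRCm38, GENCODE M21), and no other annotated gene overlaps it. Its level was 4.66 CPM in R1 and 4.87 CPM in IB10 in LIF_2i, 8.23 and 10.6 CPM in rosette_LIM, and 27.4 and 21.5 CPM in primed_4d. These levels rest on 32 (R1) and 38 (IB10) UMIs for LIF_2i, 48 and 55 for rosette_LIM, and 128 and 114 for primed_4d. The ranges of the 3 conditions did not overlap, and the order LIF_2i, rosette_LIM, primed_4d held in both lines.

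Against LIF_2i, the primed_4d level of Podxl was 5.15-fold higher, a log2 fold change of 2.36 ± 0.25 (adjusted p = 4.49e-06, edgeR's quasi-likelihood test with Benjamini-Hochberg adjustment over 12098 genes). Here and below, ± gives a standard error worked back from the log2 fold change and the F statistic of that test. The log2 ratio was 2.55 within R1 and 2.14 within IB10. From rosette_LIM to primed_4d it was 2.57-fold higher (1.36 ± 0.24, edgeR adjusted p = 0.000498), with log2 ratios of 1.73 in R1 and 1.01 in IB10. From LIF_2i to rosette_LIM the difference was smaller, 1.00 ± 0.28 on the log2 scale (edgeR adjusted p = 0.0477), with log2 ratios of 0.82 and 1.13. The first 2 differences passed the threshold of 0.05 under each of the 15 alternatives, while the rosette_LIM one passed under 5 of 15. Without R1 primed_4d, the library with the shallowest wells, the primed_4d difference from LIF_2i was 2.07. For rosette_LIM against LIF_2i, DESeq2 gave Podxl an adjusted p of 0.248, the fit without the line as a replicate block at 0.082, and the fits without R1 LIF_2i, without IB10 LIF_2i and without IB10 rosette_LIM at 0.410, 0.343 and 0.293 with edgeR.

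**Figure D1:**
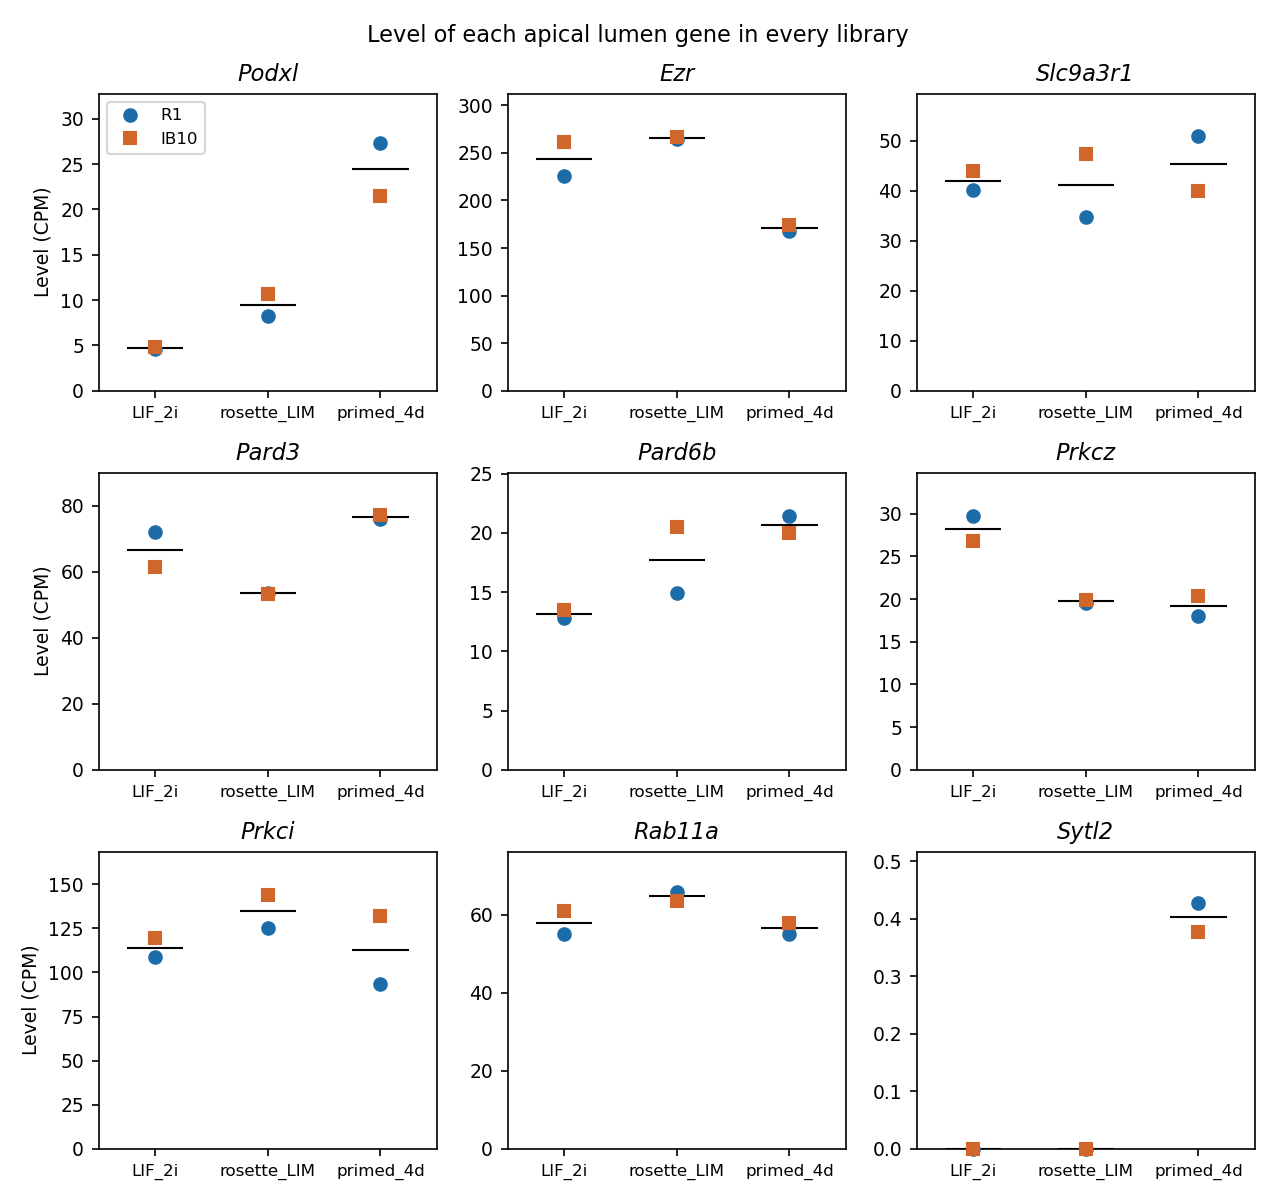
Level of each of the 9 genes in CPM (vertical axis, from 0, scaled per gene) in the 3 conditions, with circles for R1, squares for IB10 and a line at their mean. Podxl climbs from under 5 CPM in LIF_2i to above 21 CPM in primed_4d in both lines, Ezr is lowest in primed_4d, and Sytl2 has UMIs in primed_4d alone, 2 in each library.

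Markers of other cell types were measured beside Podxl, which is also known from endothelium, podocytes and early extraembryonic cells. The summed level of 8 primitive endoderm markers was higher where Podxl was, from 17.6 and 26.1 CPM in LIF_2i to 38.2 and 33.9 CPM in rosette_LIM and 80.6 and 51.9 CPM in primed_4d. Most of that sum was Lamb1, a laminin chain, at 65.0 and 44.4 CPM in primed_4d. Of the 3 tested markers, 2 passed by edgeR in primed_4d against LIF_2i (Lamb1 and Dab2), and DESeq2 called 1 of the 3 higher. Dab2 passed the count filter only through primed_4d. Gata4 did not pass, at 2.62 and 1.92 CPM in LIF_2i and 4.71 and 2.83 CPM in primed_4d. Foxa2 had 6 and 1 UMIs in primed_4d and 0 in the other libraries. Sox7 had 5 and 1 UMIs in primed_4d against 2 and 1 in LIF_2i, and Pdgfra had 2 and 2 against 12 and 6. Sox17 was at 0 in both primed_4d libraries, and Gata6 was at 0.43 and 0.19 CPM there. The summed level of 5 endothelial markers lay between 2.91 and 7.36 CPM, with Emcn at 0 in every library and Cdh5 at 0 in 5 of 6. Most of that sum was Tek in LIF_2i (2.77 and 5.12 CPM) and rosette_LIM (6.17 and 7.16 CPM). Tek stood at 2.35 and 3.02 CPM in primed_4d, where edgeR called it lower than in rosette_LIM (log2 −1.335). Tie1 of that list was higher in primed_4d than in LIF_2i by 4.95 ± 0.98 on the log2 scale (edgeR adjusted p = 0.00109), at 2.99 and 2.45 CPM. It had 14 and 13 UMIs there against 0 and 1 in LIF_2i, and it passed the count filter only through primed_4d. Of the trophectoderm list, Krt18 rose to 15.0 and 10.4 CPM in primed_4d (2.48 ± 0.34 against LIF_2i, edgeR adjusted p = 4.90e-05). Krt18 passed the count filter only through primed_4d. The sum of the 7 markers went the other way, from 66.8 and 76.9 CPM in LIF_2i to 44.3 and 32.3 CPM in primed_4d. The 6 feeder fibroblast markers, mostly Vim, summed to 241 to 311 CPM in LIF_2i and rosette_LIM and to 161 and 199 CPM in primed_4d. That course is the one of Vim, while Thy1 of the list was higher in primed_4d, at 9.20 and 10.2 CPM against 4.66 and 4.87 CPM in LIF_2i (1.04 ± 0.39, edgeR adjusted p = 0.0452), with 6.51 and 1.94 CPM for rosette_LIM. DESeq2 called 0 of the 3 tested feeder markers higher in primed_4d against LIF_2i. Dcn, for a fibroblast proteoglycan, had 4 and 10 UMIs in primed_4d against 1 in each LIF_2i library. The collagen gene Col1a2 had 4 and 1 against 0, and Col1a1 had 5 in each against 10 and 18. The part of such cells in the Podxl difference was not tested.

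A Podxl UMI was found in a minority of wells in every condition, which does not give the share of cells that express it. As deposited, 12.8% of R1 wells and 14.9% of IB10 wells had a Podxl UMI in LIF_2i, 21.3% and 20.7% for rosette_LIM, and 35.6% and 28.7% for primed_4d. Of 188 wells each, those with more than 1 Podxl UMI numbered 5 and 8 for LIF_2i, 8 and 9 for rosette_LIM, and 29 and 35 for primed_4d, and the highest count in a well was 7, in R1 primed_4d. Depth differed between libraries, so each well was also thinned to 5000 UMIs, which left out the shallower wells (27 of R1 and 4 of IB10 for LIF_2i, 9 and 37 for rosette_LIM, 84 and 14 for primed_4d). The thinned shares were 4.35% (exact 95% interval 1.77 to 8.75) and 2.72% (0.888 to 6.23) in LIF_2i. They were 5.03% (2.33 to 9.33) and 8.61% (4.66 to 14.3) in rosette_LIM, and 12.5% (6.83 to 20.4) and 11.5% (7.16 to 17.2) in primed_4d. The order of the conditions was that of the CPM, and the rosette_LIM intervals overlapped those of both neighbours. These intervals cover counting error only. No cell type that lacks Podxl was in the plates, so the share that stray RNA would give was not measured. At these counts, more cells with Podxl RNA and more Podxl RNA per cell could not be told apart.

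**Figure D2:**
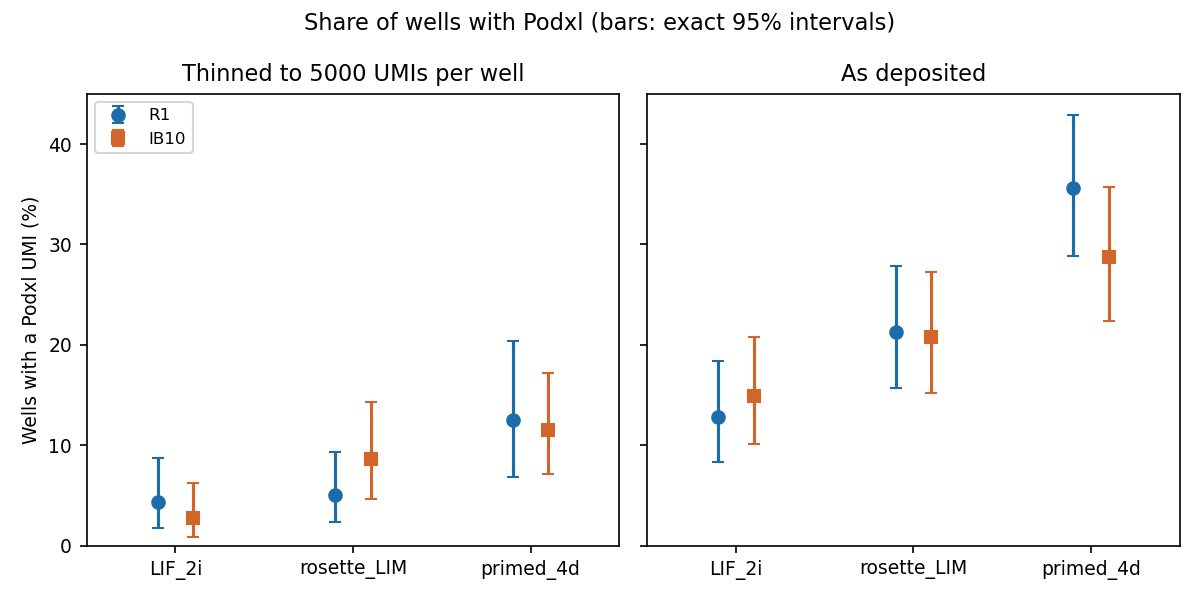
Percent of wells with at least 1 Podxl UMI in the 3 conditions after thinning to 5000 UMIs per well (left) and as deposited (right), with circles for R1, squares for IB10 and bars for exact 95% intervals. Both panels rise from LIF_2i to primed_4d, and the left one runs from 2.72% in IB10 LIF_2i to 12.5% in R1 primed_4d.

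Over the wells of a library, thinned Podxl counts had a variance of 0.884 to 1.31 times their mean, where counting alone gives a ratio near 1. Across the 6 libraries and the other 7 tested members, the rank correlation of Podxl with a member over wells ran from −0.154 (Ezr) to 0.316 (Prkci). Such counts, mostly 0 or 1, carry little information on joint expression within a cell.

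The genes that tracked Podxl most closely over the 6 libraries, by Pearson correlation of log2(CPM + 1) among 8162 genes with a mean of at least 10 CPM, were Vapa (0.996), Dusp3 (0.994), Usp47 (0.994), Armcx2 (0.994) and Cks1b (0.994). Dusp3, a phosphatase, went from 2.91 and 3.59 CPM in LIF_2i to 6.17 and 8.71 CPM in rosette_LIM and 26.1 and 16.0 CPM in primed_4d, close to the levels of Podxl itself. The correlation does not weigh the size of a change. Vapa went from 248.5 and 245.9 CPM in LIF_2i to 298.2 and 286.3 CPM in primed_4d. The genes with the most opposite course were Zfhx2 (−0.996), Mylpf (−0.995), Fam53b (−0.995), Caprin1 (−0.993) and Mrpl40 (−0.993). Zfhx2 went from 227.9 and 208.2 CPM in LIF_2i to 27.38 and 37.37 CPM in primed_4d. Caprin1 went from 676.9 and 675.5 CPM to 565.8 and 591.1 CPM. The libraries form 3 pairs of a condition, so these correlations describe the course over conditions, and no p is given.

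The genes that tie Podxl to the cortex did not follow it. Ezr, at chr17:6738041-6782784 on the minus strand, stood at 225 and 261 CPM in LIF_2i, 265 and 267 CPM in rosette_LIM, and 167 and 174 CPM in primed_4d. It was lowest in primed_4d in both lines, and the ranges of the 3 conditions did not overlap. The fall was −0.49 ± 0.11 on the log2 scale against LIF_2i (edgeR adjusted p = 0.00271) and −0.65 ± 0.11 against rosette_LIM (edgeR adjusted p = 0.000362), while rosette_LIM against LIF_2i gave 0.16 ± 0.11 (edgeR adjusted p = 0.471). Without IB10 LIF_2i the first of these was −0.39, with an edgeR adjusted p of 0.131. The last 1000 bases of Ezr overlap exons of Sytl3 on the opposite strand. The sources used here do not say whether counting used strand, and Sytl3 had 14, 10, 9, 3, 1 and 0 UMIs in the 6 libraries, against at least 782 for Ezr. After thinning, 51.9% to 58.0% of primed_4d wells had an Ezr UMI, against 62.1% to 75.5% in the other libraries.

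Slc9a3r1, at chr11:115163341-115181181 on the plus strand, stood at 40.2 and 43.9 CPM in LIF_2i, 34.8 and 47.4 CPM in rosette_LIM, and 50.9 and 40.0 CPM in primed_4d. The ranges of the 3 conditions overlapped, and the lines moved in opposite directions in each comparison. Its log2 fold changes were −0.012 ± 0.17 (rosette_LIM against LIF_2i), 0.13 ± 0.17 (primed_4d against LIF_2i) and 0.14 ± 0.18 (primed_4d against rosette_LIM), with edgeR adjusted p of 0.984, 0.598 and 0.582.

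The makeup of the linker families differed in primed_4d. Slc9a3r1 gave 49.2% and 53.2% of the UMIs of Slc9a3r1, its paralog Slc9a3r2 and Pdzk1 in LIF_2i, 52.1% and 51.5% in rosette_LIM, but 75.3% and 68.4% in primed_4d. Slc9a3r2 itself went from 40.9 and 37.7 CPM in LIF_2i to 13.5 and 15.1 CPM in primed_4d (−1.45 ± 0.19, edgeR adjusted p = 3.00e-05). Ezr gave 47.8% and 52.8% of the UMIs of the ezrin, radixin and moesin genes in LIF_2i, 54.4% and 58.8% under rosette_LIM, and 42.5% and 43.3% under primed_4d. Rdx, which encodes radixin, stayed at 180 to 191 CPM in 5 libraries and at 151 CPM in IB10 rosette_LIM, and Msn, for moesin, fell from 57.4 and 53.5 CPM in LIF_2i to 35.1 and 36.6 CPM in primed_4d (−0.61 ± 0.15, edgeR adjusted p = 0.00441, and 0.0531 to 0.0869 without either LIF_2i library or R1 primed_4d). Of Podxl and its relatives Podxl2 and Cd34, Podxl gave 68.1% and 65.5% of the UMIs in LIF_2i and 93.4% and 85.7% in primed_4d. Shares count UMIs and compare libraries, since capture can differ between genes.

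**Figure D3:**
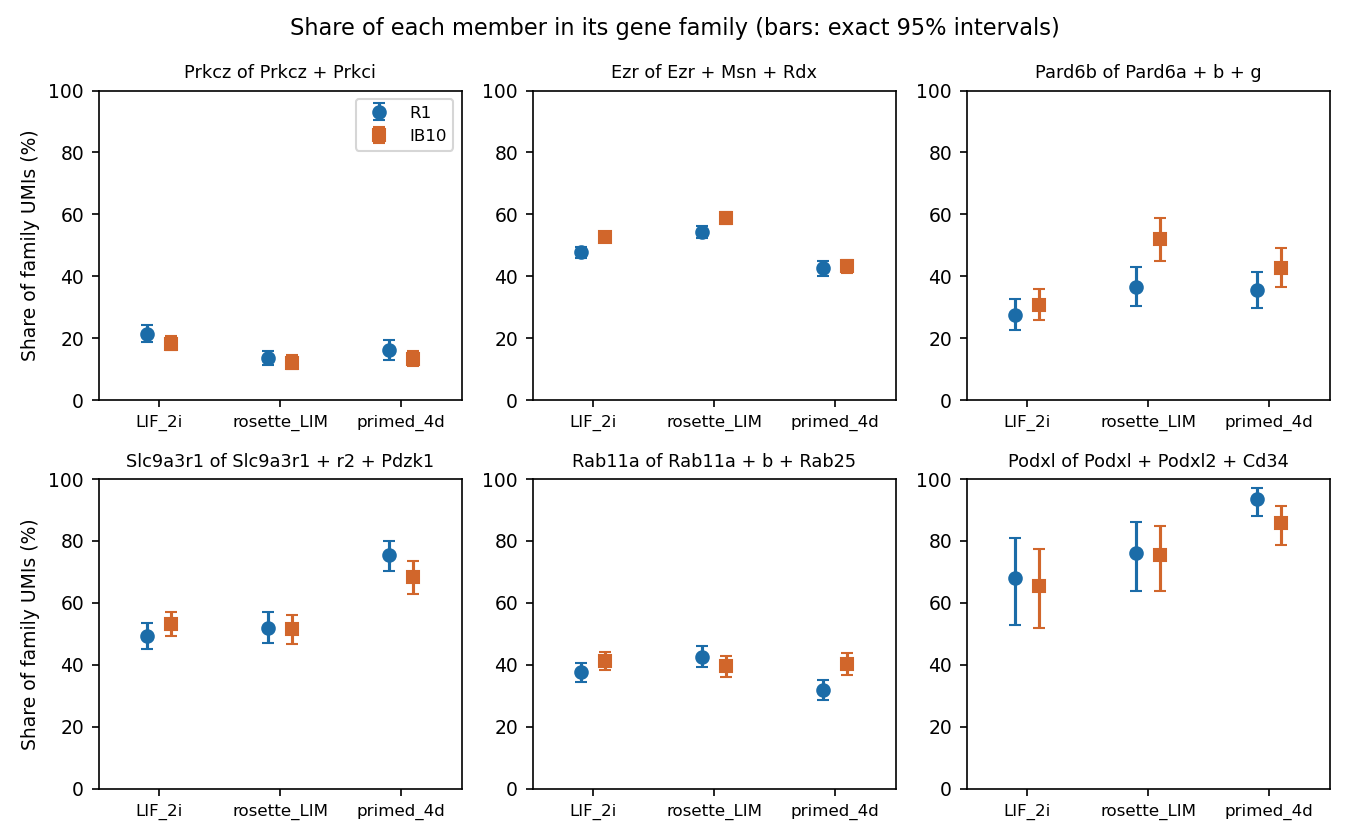
Percent of the UMIs of a gene family that came from the named member (vertical axis, 0 to 100) in the 3 conditions, with circles for R1, squares for IB10 and bars for exact 95% intervals. Slc9a3r1 and Podxl take larger shares in primed_4d, Ezr takes its smallest share there, and Prkcz takes its largest share of the atypical kinase UMIs in LIF_2i.

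Within the PAR complex, the members moved apart from each other. Pard3, at chr8:127063893-127612286 on the plus strand, stood at 72.1 and 61.5 CPM in LIF_2i, 53.6 and 53.4 CPM in rosette_LIM, and 75.9 and 77.2 CPM in primed_4d. It was lowest in rosette_LIM, and the 3 ranges did not overlap. The rise from rosette_LIM to primed_4d was 0.50 ± 0.13 on the log2 scale (edgeR adjusted p = 0.00888), and it was 0.43 with an edgeR adjusted p of 0.078 without IB10 primed_4d. Against LIF_2i the values were −0.29 ± 0.13 in rosette_LIM and 0.22 ± 0.13 in primed_4d (edgeR adjusted p = 0.248 and 0.209). Its paralog Pard3b had at most 5 UMIs in a library.

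Pard6b, at chr2:168081004-168101203 on the plus strand, stood at 12.8 and 13.5 CPM in LIF_2i, 14.9 and 20.5 CPM in rosette_LIM, and 21.4 and 20.0 CPM in primed_4d. Both later conditions lay above LIF_2i, and their own ranges overlapped. The rise from LIF_2i to primed_4d was 0.67 ± 0.21 (edgeR adjusted p = 0.0191), and the rosette_LIM value of 0.45 ± 0.21 did not pass (edgeR adjusted p = 0.246). DESeq2 gave the primed_4d difference an adjusted p of 0.126, and edgeR 0.127, 0.174 and 0.193 (log2 0.71, 0.63 and 0.49) without R1 LIF_2i, IB10 LIF_2i and R1 primed_4d. Its paralog Pard6g gave 55.6% and 55.8% of the UMIs of the 3 Pard6 genes in LIF_2i and Pard6b 27.5% and 30.7%. In rosette_LIM Pard6g gave 40.9% and 34.8% and Pard6b 36.7% and 52.0%. Pard6g itself was lower in rosette_LIM, from 25.9 and 24.5 CPM to 16.6 and 13.8 CPM (−0.71 ± 0.19, edgeR adjusted p = 0.0379). Without R1 LIF_2i, IB10 LIF_2i, R1 rosette_LIM or IB10 rosette_LIM, that difference was −0.84, −0.58, −0.75 or −0.67 and did not pass.

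The atypical kinases took different courses. Prkcz, at chr4:155260129-155361361 on the minus strand, stood at 29.7 and 26.8 CPM in LIF_2i, 19.5 and 19.9 CPM in rosette_LIM, and 18.0 and 20.4 CPM in primed_4d. LIF_2i was the high group, and the ranges of the other conditions overlapped. The fall was −0.54 ± 0.18 in primed_4d (edgeR adjusted p = 0.0278), while rosette_LIM had nearly the same value, −0.49 ± 0.18, and did not pass (edgeR adjusted p = 0.134). In R1 LIF_2i, 1 well held 24 of the 204 Prkcz UMIs. Without wells over 5 times their library's median, the primed_4d difference was −0.40 and did not pass (edgeR adjusted p = 0.0925). DESeq2 gave the primed_4d difference an adjusted p of 0.195, and edgeR 0.281, 0.104 and 0.209 (log2 −0.43, −0.65 and −0.42) without R1 LIF_2i, IB10 LIF_2i and R1 primed_4d. Prkci, at chr3:30995747-31052959 on the plus strand, stood at 108 and 120 CPM in LIF_2i, 125 and 144 CPM in rosette_LIM, and 93.7 and 132 CPM in primed_4d. Its log2 fold changes of 0.27 ± 0.12 (rosette_LIM against LIF_2i), −0.015 ± 0.12 (primed_4d against LIF_2i) and −0.28 ± 0.12 (primed_4d against rosette_LIM) had edgeR adjusted p of 0.246, 0.935 and 0.0925, the last being 0.0345 (log2 −0.44) without IB10 primed_4d. Prkcz gave 21.5% (exact 95% interval 18.9 to 24.3) and 18.3% (16.1 to 20.7) of the atypical kinase UMIs in LIF_2i. In rosette_LIM it gave 13.5% (11.3 to 16.0) and 12.2% (10.1 to 14.6), below LIF_2i in each line beyond the counting intervals. In primed_4d it gave 16.1% (13.0 to 19.5) and 13.4% (11.1 to 16.0).

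The promoters of Ezr, Pard6b and Prkcz are printed because these genes, beside Podxl, were the members that differed between primed_4d and LIF_2i. The sequences are the bases before the transcript start given by RefSeq on GRCm38.p6, read on the strand of the gene, and 7 of the 9 members had an entry. Capitals mark GC boxes (GGGCGG) and CCAAT boxes (CCAAT) on either strand, which bind factors of the Sp and NF-Y families and do not overlap each other here.
Ezr, chr17:6782785-6783030, minus strand: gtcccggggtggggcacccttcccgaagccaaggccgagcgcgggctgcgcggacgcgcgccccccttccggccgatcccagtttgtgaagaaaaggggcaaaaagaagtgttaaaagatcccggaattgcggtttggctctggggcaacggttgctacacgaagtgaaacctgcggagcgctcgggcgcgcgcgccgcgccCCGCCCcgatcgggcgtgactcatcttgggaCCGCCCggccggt
Pard6b, chr2:168080754-168081003, plus strand: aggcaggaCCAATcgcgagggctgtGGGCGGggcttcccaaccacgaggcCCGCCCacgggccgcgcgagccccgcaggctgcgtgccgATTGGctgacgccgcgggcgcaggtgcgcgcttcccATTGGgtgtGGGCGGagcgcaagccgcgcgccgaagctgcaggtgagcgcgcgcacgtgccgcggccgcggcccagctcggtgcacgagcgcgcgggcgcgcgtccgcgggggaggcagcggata
Prkcz, chr4:155361429-155361678, minus strand: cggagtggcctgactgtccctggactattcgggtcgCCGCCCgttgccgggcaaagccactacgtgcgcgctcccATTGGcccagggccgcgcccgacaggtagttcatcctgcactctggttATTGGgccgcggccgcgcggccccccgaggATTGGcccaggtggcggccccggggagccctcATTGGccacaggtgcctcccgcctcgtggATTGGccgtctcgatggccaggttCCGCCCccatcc
Ezr had 2 GC boxes and 0 CCAAT boxes, Pard6b had 3 and 3, and Prkcz had 2 and 5. Of 32851 RefSeq promoters cut to the same 250 bases, 32.7% held a GC box and 33.8% a CCAAT box, and 0.84% held 4 or more CCAAT boxes. RefSeq lists further starts for Prkcz, of which the one with its window at chr4:155345790-155346039 held 0 of either box, and 3′ tags do not tell which start was used. A match describes the letters and does not show that a factor binds.

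Of the delivery genes, Rab11a passed in no comparison and Sytl2 was hardly detected. Rab11a, a GTPase of recycling endosomes at chr9:64715299-64737758 on the minus strand, stood at 55.0 and 61.1 CPM in LIF_2i, 65.8 and 63.7 CPM in rosette_LIM, and 55.2 and 57.9 CPM in primed_4d. Rosette_LIM was highest, and the ranges of LIF_2i and primed_4d overlapped. Its log2 fold changes of 0.19 ± 0.13 (rosette_LIM against LIF_2i), −0.023 ± 0.13 (primed_4d against LIF_2i) and −0.21 ± 0.14 (primed_4d against rosette_LIM) had edgeR adjusted p of 0.483, 0.906 and 0.247. Its relative Rab25, an epithelial Rab, gave 0.995% and 1.55% of the UMIs of Rab11a, Rab11b and Rab25 in LIF_2i, 1.22% and 1.92% for rosette_LIM, and 9.85% and 3.93% for primed_4d. Rab25 stood at 1.46 and 2.31 CPM in LIF_2i and at 17.1 and 5.66 CPM in primed_4d (2.49 ± 0.50, edgeR adjusted p = 0.00124). R1 primed_4d was the high library, and the log2 fold change of Rab25 was 1.29 without it and 1.77 without R1 LIF_2i, neither of which passed.

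Sytl2, at chr7:90302252-90410719 on the plus strand, had 0 UMIs in the LIF_2i and rosette_LIM libraries and 2 UMIs in each primed_4d library. In R1 both UMIs came from 1 well, and in IB10 they came from 2 wells. With a floor of 3 counts over a group in place of 0, the 4 UMIs of primed_4d stood at 1.95 times LIF_2i and 1.47 times rosette_LIM. These values leave out the counting error of the 4 UMIs. They are therefore not lower bounds, and a difference was not shown. The gene was too sparse to be tested. After thinning, no well had a Sytl2 UMI, and the count of 0 allows a share of up to 1.63% to 2.89% of wells with one, depending on the library. Of the family, Sytl1 had the most UMIs in primed_4d, 26 and 12, and it passed the count filter only through that condition. Against LIF_2i it rose there by 2.11 ± 0.65 on the log2 scale (edgeR adjusted p = 0.0189). That was 0.93 without R1 primed_4d, 2.09 without R1 LIF_2i and 2.14 without IB10 LIF_2i, and none of these passed.

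Across the 8 tested members, edgeR called 1 higher and 0 lower in rosette_LIM against LIF_2i, where 5.55% of all genes were called (3.2% higher and 2.35% lower). The unadjusted edgeR p was under 0.05 for 3 higher and 2 lower members, and DESeq2 and limma called 0 members. In primed_4d against LIF_2i it called 2 higher and 2 lower, where 37.9% of all genes were called (18.3% higher and 19.6% lower), and in primed_4d against rosette_LIM 2 higher and 1 lower, where 36.1% were called (17.2% higher and 19.0% lower). The members' median log2 fold changes were 0.17, 0.056 and 0.042, against 0.0014, −0.0092 and −0.0024 over all genes. The level ranges of the conditions did not overlap for 7, 5 and 4 members, beside 49.1%, 68.6% and 65.5% of all genes. The members' share of calls in the primed_4d comparisons was thus near that of all genes. The 3 comparisons share libraries and are not independent of each other.

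**Figure D4:**
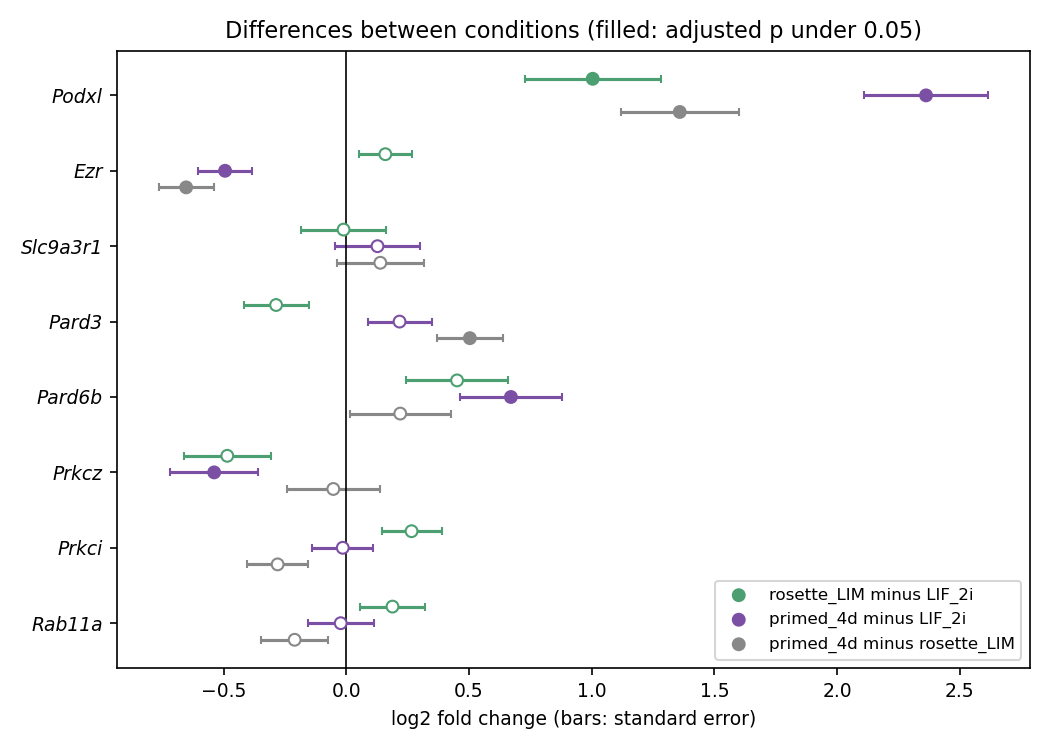
Log2 fold change of the 8 tested members (horizontal axis) in the 3 comparisons of conditions, with bars for the standard error and filled points where the edgeR adjusted p was under 0.05. Podxl is positive in all 3, from 1.00 to 2.36, Ezr and Prkcz are negative in primed_4d against LIF_2i, and the Slc9a3r1 and Rab11a points are unfilled.

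Scaling the libraries by ERCC spike-in RNA rather than by gene counts moved the median of all genes by −0.55 in rosette_LIM and −0.56 in primed_4d against LIF_2i. On that scale Podxl differed by 0.45 and 1.80, which is 1.00 and 2.36 above the median gene. Pard6b differed by 0.11 in primed_4d against LIF_2i (edgeR adjusted p = 0.816), and in primed_4d against rosette_LIM Ezr and Pard3 had edgeR adjusted p of 0.193 and 0.377.

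The lines R1 and IB10 were compared in the same fit. IB10 was at the later passage in every condition, so line and passage number cannot be told apart. EdgeR called 0 of the 8 members and 0.752% of all genes, and DESeq2 and limma also called 0 members. At an unadjusted p under 0.05 each tool had 1 member, Prkci, which was higher in IB10 by 0.28 ± 0.10 on the log2 scale (edgeR adjusted p = 0.268). The members' differences ran from −0.066 to 0.28.

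Other polarity genes were read from lists by complex, whose counts stand beside 37.9% of all genes called in primed_4d against LIF_2i. The Crumbs complex, which marks the apical membrane and meets the PAR complex there, had 4 of 6 tested genes higher and 0 lower in primed_4d against LIF_2i by edgeR, DESeq2 and limma, with a median log2 fold change of 1.41 against −0.0092 over all genes. Of the 9 listed genes, Crb1 and Lin7a had 0 UMIs in every library and Crb2 at most 6, so these were not tested. Crb3 passed the count filter only through primed_4d, so the count and the median include a gene kept for being high there. Crb3, the short transmembrane Crumbs protein, went from 1.46 and 1.41 CPM in LIF_2i to 11.8 and 8.49 CPM in primed_4d (2.80 ± 0.40, edgeR adjusted p = 6.62e-05). Inadl, the scaffold PATJ, rose by 2.32 ± 0.35 and its relative Mpdz by 2.19 ± 0.42 (edgeR adjusted p = 0.00011 and 0.000908). Lin7c, a small adaptor, rose by 0.62 ± 0.14 (edgeR adjusted p = 0.0026), and Mpp5, the PALS1 scaffold, stood at 27.1 and 26.9 CPM in LIF_2i and 27.2 and 31.1 CPM in primed_4d. Mpdz rested on 9 and 29 UMIs in LIF_2i and ran from 1.44 without R1 LIF_2i to 3.37 without IB10 LIF_2i, passing in each fit. Lin7c missed the threshold without R1 LIF_2i (0.58), IB10 LIF_2i (0.66) or IB10 primed_4d (0.46), and with ERCC scaling it was at 0.082 (edgeR adjusted p = 0.854). Against rosette_LIM, Crb3 rose by 2.76, Inadl by 1.56 and Mpdz by 1.47, the last being 0.93 without IB10 rosette_LIM and 1.29 without R1 primed_4d, where it did not pass, and DESeq2 gave it an adjusted p of 0.056. In rosette_LIM against LIF_2i edgeR, DESeq2 and limma called 0 of the 6, where edgeR called 5.55% of all genes. Of the 6, 0 had an unadjusted p under 0.05 there.

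In the list of sialomucins, ERM proteins and their linkers, 3 of 11 tested genes rose and 4 fell in primed_4d against LIF_2i, with a median of 0.13. DESeq2 called 2 higher and 3 lower, giving Pdzk1 and Slk adjusted p of 0.0894 and 0.182. Prom1, for the apical protrusion protein prominin, went from 2.77 and 1.79 CPM in LIF_2i to 1.20 and 0.58 CPM in rosette_LIM and 17.1 and 8.68 CPM in primed_4d. It rose by 2.48 ± 0.35 against LIF_2i and by 3.80 ± 0.43 against rosette_LIM (edgeR adjusted p = 5.94e-05 and 8.63e-06). Pdzk1, a PDZ scaffold, rose by 2.03 ± 0.55 on 4 and 8 UMIs in LIF_2i and 15 and 18 in primed_4d. Prom1 and Pdzk1 passed the count filter only through primed_4d, so the list's count and median include genes kept for being high there. Beside Ezr, Msn and Slc9a3r2, the gene that fell was Slk, which encodes a kinase of ezrin (−0.46 ± 0.16, edgeR adjusted p = 0.0305). Pdzk1 and Slk did not pass without R1 LIF_2i (1.84 and −0.47), IB10 LIF_2i (2.29 and −0.46) or R1 primed_4d (1.73 and −0.35).

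In the list of apical vesicle transport, 3 of 17 tested genes rose (Rab25, Sytl1 and Rab11fip2) and 1 fell in primed_4d against LIF_2i, with a median of 0.27, a smaller share than the 37.9% of all genes. Sytl1 passed the count filter only through primed_4d, so the count and the median include a gene kept for being high there. DESeq2 called 1 higher, Rab25, and 1 lower. The gene that fell, Rab11fip5, encodes a Rab11 effector and went from 55.2 and 43.9 CPM in LIF_2i to 19.0 and 26.3 CPM in rosette_LIM and 6.20 and 4.72 CPM in primed_4d. Its difference was −1.10 ± 0.19 in rosette_LIM and −3.17 ± 0.24 in primed_4d (edgeR adjusted p = 0.00368 and 1.50e-07), the former being −0.85 and −1.35 without R1 and without IB10 LIF_2i, where it did not pass. Rab11fip2, another such effector, rose by 1.11 ± 0.39 (edgeR adjusted p = 0.0339) and did not pass in the fits without R1 LIF_2i (0.79), IB10 LIF_2i, R1 primed_4d (1.13) or IB10 primed_4d (1.09).

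Stx3, the apical membrane syntaxin, was low in rosette_LIM alone among the 3 conditions. It stood at 49.4 and 45.7 CPM in LIF_2i, 12.2 and 11.8 CPM in rosette_LIM, and 69.7 and 52.7 CPM in primed_4d. The difference was −1.96 ± 0.17 in rosette_LIM against LIF_2i and 2.33 ± 0.17 in primed_4d against rosette_LIM (edgeR adjusted p = 1.17e-05 and 1.57e-07), and the first passed under each of the 15 alternatives. In that last comparison 4 of the 17 genes rose and 2 fell, beside 36.1% of all genes, and DESeq2 called 2 higher and 1 lower. Rab25 rose by 2.10, Rab11fip1 by 0.63 and Anxa2 by 0.71, and Rab11fip5 (−2.07) and Rab27a (−0.999) fell. Anxa2 and Rab27a passed in none of the 6 fits that leave out a library (0.64 to 0.87 and −1.13 to −0.88). Rab25 did not pass without R1 rosette_LIM (1.32) or R1 primed_4d (0.86), nor Rab11fip1 without IB10 rosette_LIM (0.49) or IB10 primed_4d (0.51).

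Of the basolateral genes, 0 of 7 were called in rosette_LIM against LIF_2i by edgeR, DESeq2 or limma, where edgeR called 5.55% of all genes. The unadjusted edgeR p was under 0.05 for 1 of the 7. In primed_4d against LIF_2i, Llgl2, a basolateral tumour suppressor homologue, fell by 1.18 on the log2 scale (edgeR adjusted p = 8.07e-06), from 159 and 149 CPM to 58.0 and 77.8 CPM. Mark3, a PAR-1 kinase, rose there by 0.49 (edgeR adjusted p = 0.00607) and was at −0.071 with ERCC scaling. It did not pass without R1 LIF_2i (0.46), IB10 LIF_2i (0.52) or R1 primed_4d (0.40). The list's median was −0.14.

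Of the 9 exocyst genes, which tether vesicles to the membrane, 3 rose and 2 fell in primed_4d against LIF_2i, with a median of −0.27, and DESeq2 called 0 higher and 1 lower, Exoc6b, whose rosette_LIM difference had a DESeq2 adjusted p of 0.0582. Exoc6b fell in steps, from 45.1 and 43.4 CPM in LIF_2i to 24.5 and 23.6 CPM in rosette_LIM and 10.5 and 12.6 CPM in primed_4d (−0.85 ± 0.16 and −1.92 ± 0.18 against LIF_2i, edgeR adjusted p = 0.00704 and 1.42e-06). Exoc3 fell by 0.54, Exoc6 rose by 0.73, and Exoc2 and Exoc5 rose by 0.51 and 0.50 but stood at −0.039 and −0.053 with ERCC scaling. Without R1 or without IB10 LIF_2i, the rosette_LIM value of Exoc6b was −0.79 or −0.90 and did not pass, nor did Exoc3 (−0.65 or −0.42), Exoc6 (0.59 or 0.90), Exoc2 (0.63 or 0.38) and Exoc5 (0.65 or 0.35) in primed_4d. Without R1 primed_4d Exoc3 (−0.43) and Exoc6 (0.74) did not pass, and without IB10 primed_4d Exoc2 (0.37), Exoc5 (0.46) and Exoc6 (0.73) did not.

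Of 10 apical constriction genes, 1 rose and 3 fell in primed_4d against LIF_2i, with a median of −0.18. Shroom3, which directs apical constriction, went from 43.5 and 45.0 CPM in LIF_2i and 47.8 and 55.6 CPM in rosette_LIM to 24.2 and 19.1 CPM in primed_4d (−1.02 ± 0.17 against LIF_2i, edgeR adjusted p = 0.000269). The others that fell were Myh9 (−0.75) and Rhoa (−0.31), for non-muscle myosin and a small GTPase, with edgeR adjusted p of 0.0878 and 0.0598 without the replicate block, and DESeq2 gave Rhoa an adjusted p of 0.104. Myl9, a myosin light chain, passed in rosette_LIM (3.74 ± 0.99, edgeR adjusted p = 0.0389) and primed_4d (3.39 ± 1.03, edgeR adjusted p = 0.0179) on few UMIs, 3 and 1 for LIF_2i, 9 and 32 for rosette_LIM, and 25 and 5 for primed_4d. Without IB10 rosette_LIM and without R1 primed_4d these values were 1.64 and 1.18 and did not pass, nor did they without R1 LIF_2i (4.69 and 4.37) or IB10 LIF_2i (3.09 and 2.77). Rhoa ran from −0.41 to −0.22 without one of the LIF_2i or primed_4d libraries and passed in none of those 4 fits.

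**Figure D5:**
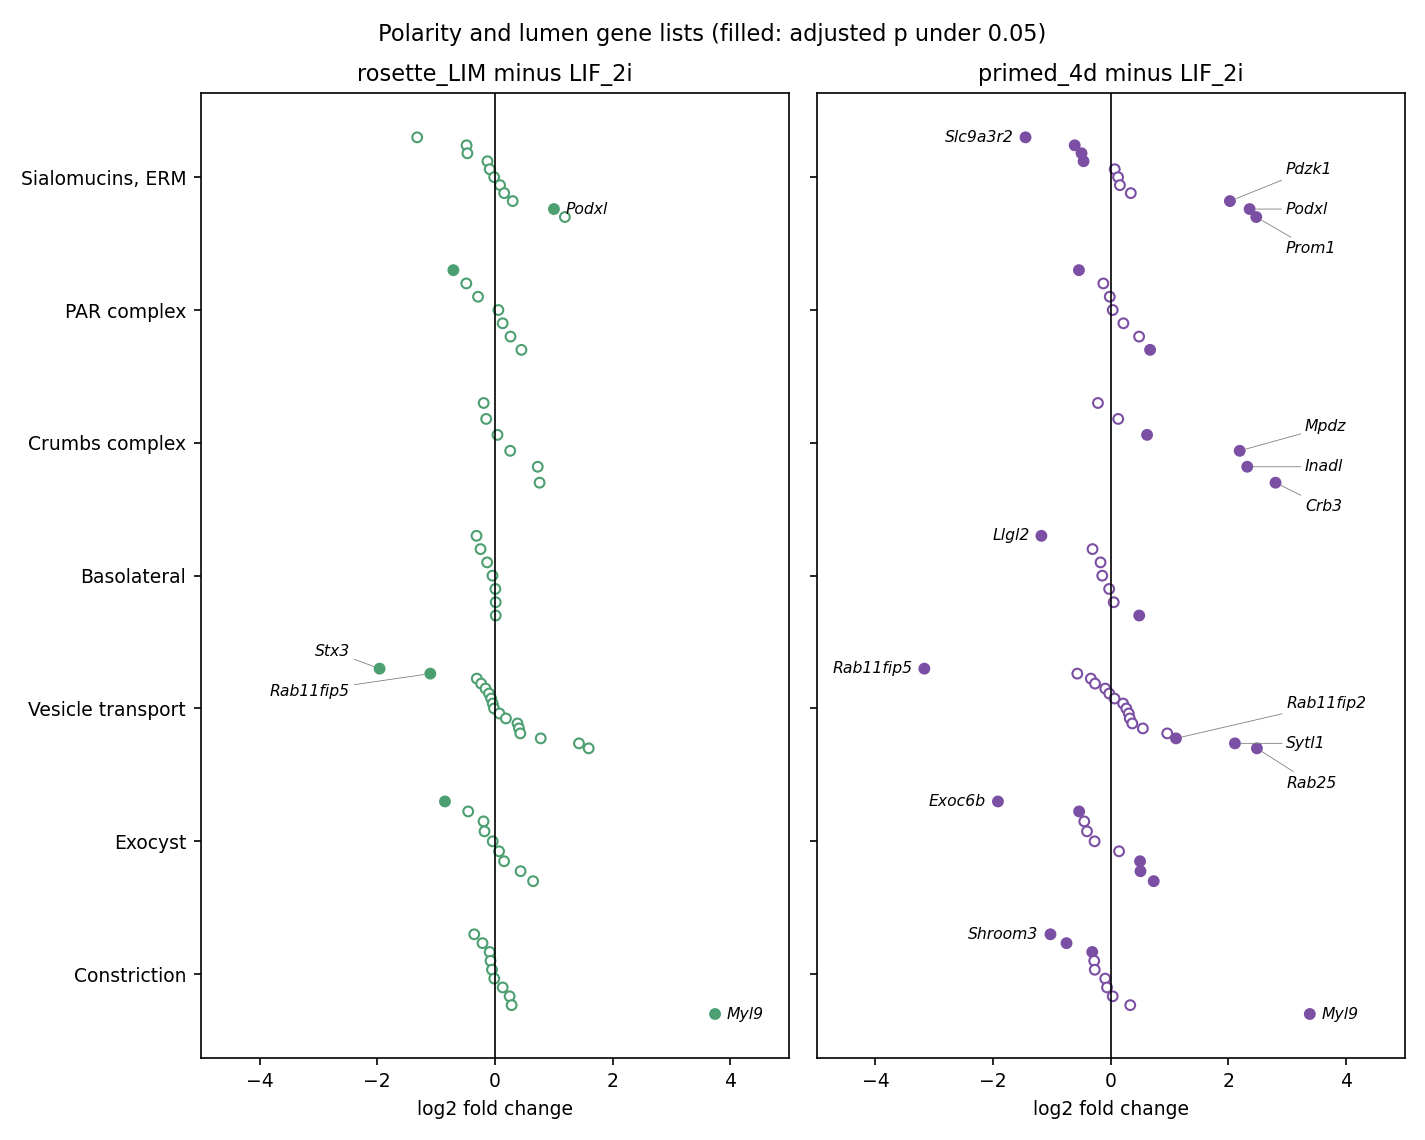
Log2 fold change (horizontal axis) of each tested gene of 7 lists (rows, genes of a list stacked by value) in rosette_LIM and in primed_4d against LIF_2i, filled where the edgeR adjusted p was under 0.05, with names at an absolute value of 1 or more. In rosette_LIM 6 points are filled, and in primed_4d the Crumbs complex row has 4 filled points, all positive there and with ERCC scaling, where Lin7c is at 0.082 and does not pass.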

How the data were processed

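RNA of single sorted cells was tagged at the 3′ end with UMIs (SORT-seq, a plate-based CEL-Seq2 protocol), per the labels' protocols. The deposited values are expected counts per gene and well: each of the 1296 distinct non-zero values matched, to 2 decimals, the number of molecules expected for a whole number of the 4096 possible UMIs, and no scaling between wells was seen. The submitters' processing notes name BWA and mm10 (GRCm38), and for the versions and the annotation used in counting, nothing is given in the sources used here. ERCC rows (91, with 1.75% of counts) entered neither the library sizes nor the tests.

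Wells were summed per library and rounded. EdgeR 4.0.16 in R 4.3.3 fitted condition and cell line over the 6 libraries, with TMM factors, filterByExpr at a minimum count of 10 (12098 genes), and a two-sided quasi-likelihood test (BCV 0.103). Cell line is the block, since the labels tie libraries of the same number to the same line, and the line differences of the conditions correlated by 0.137, 0.178 and 0.081 across genes. With 2 libraries a group an exact permutation test cannot go below 0.333, so none was run. DESeq2 1.42.0 and limma 3.58.1 on log2(CPM + 5) were alternatives, with other scalings and filters and each library left out. The code was checked on simulated counts.

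The members and lists were chosen with earlier results of these data known. Named are all members, list genes with an adjusted p under 0.05 and an absolute log2 fold change of at least 1, further list genes by smallest p, and the 5 genes most like and most unlike Podxl. The pluripotency lists are given by counts and examples. Vapa and the other genes like Podxl were taken from genes with at least 10 CPM. The listed gene Vamp7 was not matched to a row.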

Additional observations from a re-analysis of the deposited data

Results flagged for a closer look

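R1 and IB10 moved in opposite directions in 7 of 24 comparisons of a member between conditions. Each line has 1 library per condition, so the difference between the lines was not tested, and the intervals given cover counting error only. No group held 4 or more libraries, so single libraries were not screened for outliers.

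Slc9a3r1 did so in all 3 comparisons. Its log2 ratio of rosette_LIM over LIF_2i was −0.208 in R1 and 0.111 in IB10, a difference of −0.319 (95% counting interval −0.672 to 0.0336). For primed_4d over LIF_2i it was 0.341 and −0.135, a difference of 0.476 (0.124 to 0.828), and for primed_4d over rosette_LIM 0.549 and −0.246, a difference of 0.795 (0.416 to 1.17). The interval of the latter pair lay above 0.

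Prkci over the same step from LIF_2i to primed_4d had log2 ratios of −0.211 in R1 and 0.137 in IB10, a difference of −0.348 (−0.569 to −0.127). Pard6b in primed_4d over rosette_LIM had 0.521 and −0.0369, a difference of 0.558 (−0.0102 to 1.13). Prkcz in the same comparison had −0.121 and 0.0315, a difference of −0.152 (−0.716 to 0.411). Rab11a in primed_4d over LIF_2i had 0.00387 and −0.0766, a difference of 0.0805 (−0.228 to 0.389). For these last 3 genes the interval included 0. R1 primed_4d had the shallowest wells, with a median of 11250 UMIs per well.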

How the results depend on the processing

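With 6 libraries, genes of few UMIs such as Sytl2 could not be tested, and leaving out a library leaves its condition with 1, assumed to vary like the others. EdgeR called 671 genes in rosette_LIM against LIF_2i, 4582 in primed_4d against LIF_2i, 4373 in primed_4d against rosette_LIM and 91 in IB10 against R1. DESeq2 called 279, 2775, 2701 and 50. The first count was 281 without the replicate block, 1048 with no filter and 1328 from its own 4 libraries. ERCC scaling gave 2037 in primed_4d against rosette_LIM and 22 between lines, and no filter gave 328 between lines. With ERCC scaling 42 of 561 calls in rosette_LIM and 672 of 4151 in primed_4d against LIF_2i were higher, against 387 of 671 and 2213 of 4582. Leaving out a library gave 60 to 1030, 2287 to 5270, 3168 to 3851 and 0 to 374 calls. The lowest of the first were 60 without R1 LIF_2i and 75 without IB10 LIF_2i. EdgeR called 0 genes between lines without R1 LIF_2i and without IB10 LIF_2i, where 847 and 845 genes had an unadjusted p under 0.05.

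The Podxl difference between rosette_LIM and LIF_2i (log2 1.00) did not pass at 1.01 without the replicate block, 1.01 with DESeq2, 0.58 with limma, 0.98 with library totals, 0.45 with ERCC scaling, 0.96 without wells under 6000 UMIs and 0.97 without wells over 5 times the median. It ran from 0.71 to 1.27 as libraries were left out, and the fit without the replicate block changed no other member's call. Among list genes, that fit lost Myh9, Rhoa and Exoc6 (0.058) in primed_4d against LIF_2i, Pard6g (0.1) and Myl9 (0.0958) in rosette_LIM against LIF_2i, and Pard6g (0.0513), Rab11fip1 (0.0913), Rab27a (0.0835), Anxa2 (0.493), Myh9 (0.146) and Actn4 (0.0827) in primed_4d against rosette_LIM, each by edgeR adjusted p. The filter at 5 times the median removes 30 wells of R1 primed_4d, whose median is low, and 2 wells of R1 LIF_2i. Signs turned with ERCC scaling, by its shift of the median, for Ezr (−0.38), Pard6b (−0.11), Prkci (−0.28) and Rab11a (−0.35) in rosette_LIM against LIF_2i. In primed_4d against LIF_2i they turned for Slc9a3r1 (−0.45), Pard3 (−0.33), Mark3 (−0.071), Exoc2 (−0.039) and Exoc5 (−0.053). Calls of Pdzk1 (0.0672), Sytl1 (0.0509), Rab11fip2 (0.349) and Exoc6 (0.697) against LIF_2i and of Rab11fip1 (0.26), Rab27a (0.137) and Anxa2 (0.304) against rosette_LIM were lost in primed_4d with ERCC scaling, by edgeR adjusted p. Without wells over 5 times the median, Prkci in primed_4d against LIF_2i was 0.020 and Prkcz in primed_4d against rosette_LIM 0.063; the cause was not tested. Leaving out a library turned Slc9a3r1 (−0.29 to 0.23, −0.20 to 0.44 and −0.18 to 0.45 in the 3 comparisons), Prkci and Rab11a in primed_4d against LIF_2i (−0.18 to 0.14 and −0.11 to 0.064) and Prkcz in primed_4d against rosette_LIM (−0.18 to 0.066), none of them called.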
